A study of Mus musculus with 4 samples.

Results

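The 51 genes described here run the cell cycle: cyclins and their kinases, the E2F factors and pocket proteins that govern entry into S phase, inhibitors of cyclin-dependent kinases (CDKs), the replicative helicase, and the genes of mitosis. The list was put together by gene function, with earlier results of these data known, and all 51 were found among the 21728 protein-coding genes used from GENCODE M21 (mouse build mm10, chromosome Y left out). There are 20 G1 regulators, 6 CDK inhibitors, 7 replication genes and 18 mitotic genes. For each gene, peaks were read within 1 kb of any annotated transcription start site (TSS), and from 50 kb before to 50 kb after the gene.

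The measurements are peaks of histone H3 acetylated at lysine 27 (H3K27ac) in whole heart of female B6CASTF1/J mice, hybrids of C57BL/6J and CAST/EiJ, aged 2 months. There is 1 group: 2 biological replicates made by pooling 2 heart samples for each, 2 technical libraries from either pool, and no treatment or second condition. The labels name the same donor for both pools and do not give the number of animals, so the spread between the pools may be technical. The replicated list derives from the alignments of both pools and gives the values unless another list is named. The list of each pool gives the replicate check, and a peak of the replicated list can be absent from either. Genes are not replicates of a condition, so no test was run: counts and medians stand beside those of all 21728 genes.

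H3K27ac is laid down by the acetyltransferases p300 and CBP on nucleosomes next to active promoters and enhancers. In a dividing cell, D cyclins with Cdk4 and Cdk6 and then E cyclins with Cdk2 phosphorylate the pocket proteins, which frees E2F factors to switch on replication genes. Genes of late cycle are held down in resting cells by the DREAM complex, through CHR elements and E2F sites, and are switched on through CCAAT boxes and by Mybl2 and Foxm1, while adult cardiomyocytes have mostly left the cycle.

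The tissue matched its label by promoter peaks at marker genes. All 10 cardiomyocyte, 8 endothelial and 6 fibroblast markers had one, and 5 of 6 markers of pericytes and smooth muscle. Macrophage markers had 1 of 7 (C1qb), lymphocyte markers 1 of 6 (Lck) and erythroid markers 1 of 6 (Klf1). The replicated list holds 63061 peaks, and the lists of replicates 1 and 2 hold 55831 and 61333, with median widths of 664 and 930 bp, so a peak was in general wider in replicate 2. The tissue is a mixture, and fewer cells with the mark and a weaker mark in each cell cannot be told apart.

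Promoter letters were read first, since the classes differ in the elements that their regulation is known for. RefSeq windows (GRCm38.p6, the assembly of mm10) of 250 bases before to 50 after the start were at hand for 40 of the 51 members. Those with none are Ccnd1, Ccnd2, Ccne2, E2f4, E2f5, Rb1, Mcm4, Ccna2, Cdc25c, Aurkb and Foxm1. The 8 stretches below, of up to 200 bases before the RefSeq start and 5′ to 3′ on the strand of the gene, show 3 mitotic genes with a promoter peak (Cdc20, Mki67, Top2a), 3 without one (Bub1b, Ccnb2, Cdk1) and 2 G1 genes with an E2F site and a peak (E2f7, Rbl1). Capitals mark 3 kinds of motif on either strand, overlapping matches included. The CHR element was searched as TTTGAA and also as its variant TTCGAA, the CCAAT box by the letters CCAAT, and the E2F site as TTTCCCGC, as TTTCGCGC, as TTTGCCGC and as TTTGGCGC.
Cdc20 (chr4:118437353-118437543, minus strand): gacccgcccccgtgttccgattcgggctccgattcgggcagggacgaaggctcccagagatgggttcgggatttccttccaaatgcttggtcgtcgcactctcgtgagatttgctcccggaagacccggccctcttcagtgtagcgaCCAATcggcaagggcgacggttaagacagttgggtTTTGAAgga
Mki67 (chr7:135716380-135716579, minus strand): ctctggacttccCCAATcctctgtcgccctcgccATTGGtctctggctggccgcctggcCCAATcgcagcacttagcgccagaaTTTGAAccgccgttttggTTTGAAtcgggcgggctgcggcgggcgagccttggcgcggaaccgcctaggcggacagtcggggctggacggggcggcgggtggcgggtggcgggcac
Top2a (chr11:99024190-99024389, minus strand): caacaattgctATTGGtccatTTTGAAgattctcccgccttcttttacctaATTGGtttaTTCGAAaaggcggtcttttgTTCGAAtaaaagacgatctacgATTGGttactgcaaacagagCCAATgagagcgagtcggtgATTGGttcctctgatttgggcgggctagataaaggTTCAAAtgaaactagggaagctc
Bub1b (chr2:118598011-118598210, plus strand): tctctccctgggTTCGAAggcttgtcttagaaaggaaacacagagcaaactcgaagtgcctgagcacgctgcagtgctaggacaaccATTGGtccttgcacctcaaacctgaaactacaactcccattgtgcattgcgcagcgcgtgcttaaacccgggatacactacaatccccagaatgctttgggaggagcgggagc
Ccnb2 (chr9:70421555-70421754, minus strand): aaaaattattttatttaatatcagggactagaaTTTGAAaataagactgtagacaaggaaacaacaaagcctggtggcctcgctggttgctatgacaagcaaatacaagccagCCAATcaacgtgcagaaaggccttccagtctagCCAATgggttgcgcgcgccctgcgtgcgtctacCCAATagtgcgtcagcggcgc
Cdk1 (chr10:69352939-69353112, minus strand): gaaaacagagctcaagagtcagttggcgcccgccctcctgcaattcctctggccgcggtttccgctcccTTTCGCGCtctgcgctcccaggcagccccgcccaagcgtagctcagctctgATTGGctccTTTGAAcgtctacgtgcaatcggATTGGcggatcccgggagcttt
E2f7 (chr10:110745239-110745438, plus strand): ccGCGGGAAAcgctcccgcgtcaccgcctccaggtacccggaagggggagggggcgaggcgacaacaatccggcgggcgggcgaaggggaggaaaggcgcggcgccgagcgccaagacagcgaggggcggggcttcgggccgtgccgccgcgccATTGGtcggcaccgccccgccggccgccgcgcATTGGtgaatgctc
Rbl1 (chr2:157204535-157204734, minus strand): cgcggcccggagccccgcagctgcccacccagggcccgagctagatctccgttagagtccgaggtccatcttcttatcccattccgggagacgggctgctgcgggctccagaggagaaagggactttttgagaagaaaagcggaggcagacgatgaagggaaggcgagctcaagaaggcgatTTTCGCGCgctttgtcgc

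Of the 14 mitotic genes with a window, 11 held both a CHR element and a CCAAT box, against 7.18% of 16432 genes. The pair stood in 2 of 14 G1 regulators, 2 of 6 replication genes and 0 of 6 inhibitors. E2F sites were spread the other way: 6 of 14 G1 regulators and 4 of 6 replication genes held one, against 1 of 14 mitotic genes (Cdk1) and 2.96% of all genes. These matches are letters, not occupied sites. Among mitotic genes the pair was as common without a promoter peak (4 of 5) as with one (7 of 9), so in this set the letters did not separate marked from unmarked promoters, as the shown stretches of Ccnb2 and Mki67 illustrate.

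Among the members, all G1, inhibitor and replication genes had a promoter peak in the replicated list, and those without one were mitotic. Outside the 51 members this contrast was absent, with a peak at 30 of 33 further replication genes and 29 of 32 further mitotic genes. A promoter peak was found at 45 of 51 members, against 57.3% of all genes. By class these were 20 of 20 G1 regulators, 6 of 6 inhibitors, 7 of 7 replication genes and 12 of 18 mitotic genes. With only the 5′ end of the gene counted as its start, 43 of 51 had a peak, against 53.7% of all genes. Both that loss at E2f8 and that at Cdkn1a came from peaks at inner start sites.

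**Figure D1:**
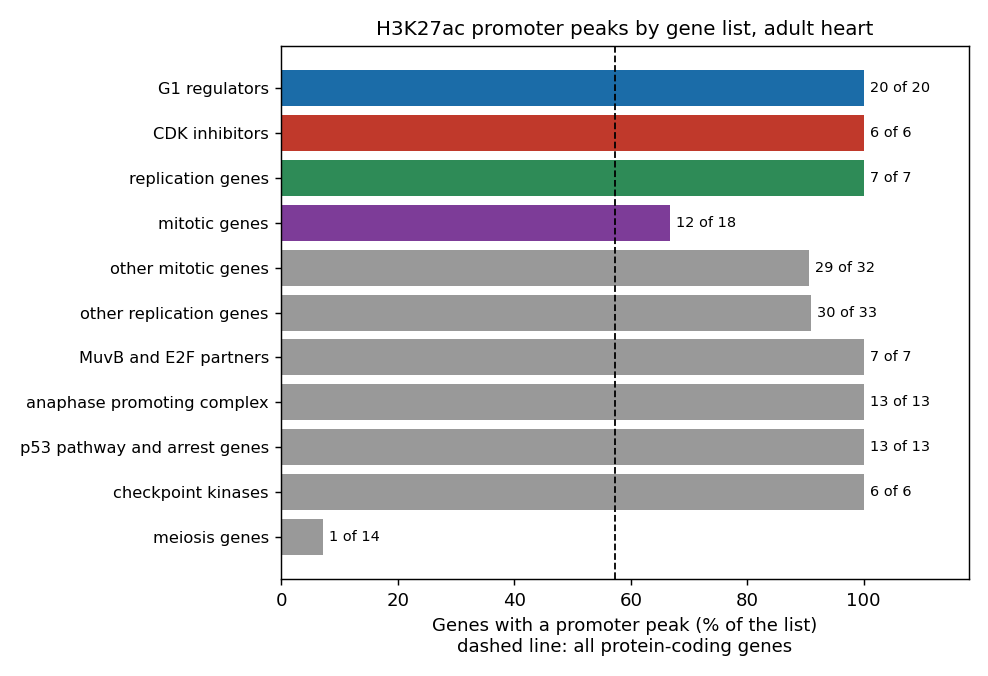
Share of each gene list with an H3K27ac peak within 1 kb of an annotated start site, replicated list (bars, percent of the list, with counts). The dashed line is the share of all 21728 protein-coding genes, 57.3%. The 3 non-mitotic classes of members sit at their full number, the mitotic members at 12 of 18 and meiosis genes at 1 of 14.

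Mitotic genes had the lowest share in both replicates, while the order of the other classes differed. In the list of replicate 1, 41 members had a promoter peak, against 55.7% of all genes, and in that of replicate 2, 43 members, against 58.4%. By class, replicate 1 gave 19 of 20 G1 regulators, 6 of 6 inhibitors, 7 of 7 replication genes and 9 of 18 mitotic genes, and replicate 2 gave 19, 5, 7 and 12. Both lists held one at 39 members: 18 of 20 G1 regulators, 5 of 6 inhibitors, 7 of 7 replication genes and 9 of 18 mitotic genes, against 55.4% of all genes. The mitotic share was near that of all genes in each of these lists.

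Mitotic genes also had the lowest median width and the smallest share of strong promoter peaks, with ranges that overlap those of the other classes. The fold is the authors' value for each peak, read as enrichment from the column order of the file format. The fold of a gene is that of its strongest promoter peak, and its width is that of the widest. These are different peaks at Ccnd2, Ccnd3, Cdk2, E2f2, E2f3, Mcm6 and Cdkn2b. Folds are taken from and compared within the replicated list, save that of Cdk1, which is given from replicate 2. The promoter peak was stronger than the median peak of that list at 36 of 51 members (17 of 20 G1 regulators, 5 of 6 inhibitors, 6 of 7 replication genes, 8 of 18 mitotic genes), against 53% of all genes. Of the genes with a promoter peak alone it was 92.4%. A width of at least 2 kb was reached by 9 members, of which 6 are G1 regulators, 2 inhibitors and 1 mitotic, against 17.1% of all genes. The median width of the widest promoter peak, with 0 for a gene without one, was 1.35 kb in G1 regulators, 1.24 kb in inhibitors, 0.651 kb in replication genes and 0.354 kb in mitotic genes, beside 0.639 kb over all genes. Over the genes with a promoter peak alone it was 1.44 kb, above the median of each class. In replicate 1 the medians of the 4 classes were 1.29, 1.25, 0.559 and 0.18 kb, and in replicate 2 they were 1.73, 1.26, 0.842 and 0.57 kb, so mitotic genes were lowest and replication genes next in each.

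**Figure D2:**
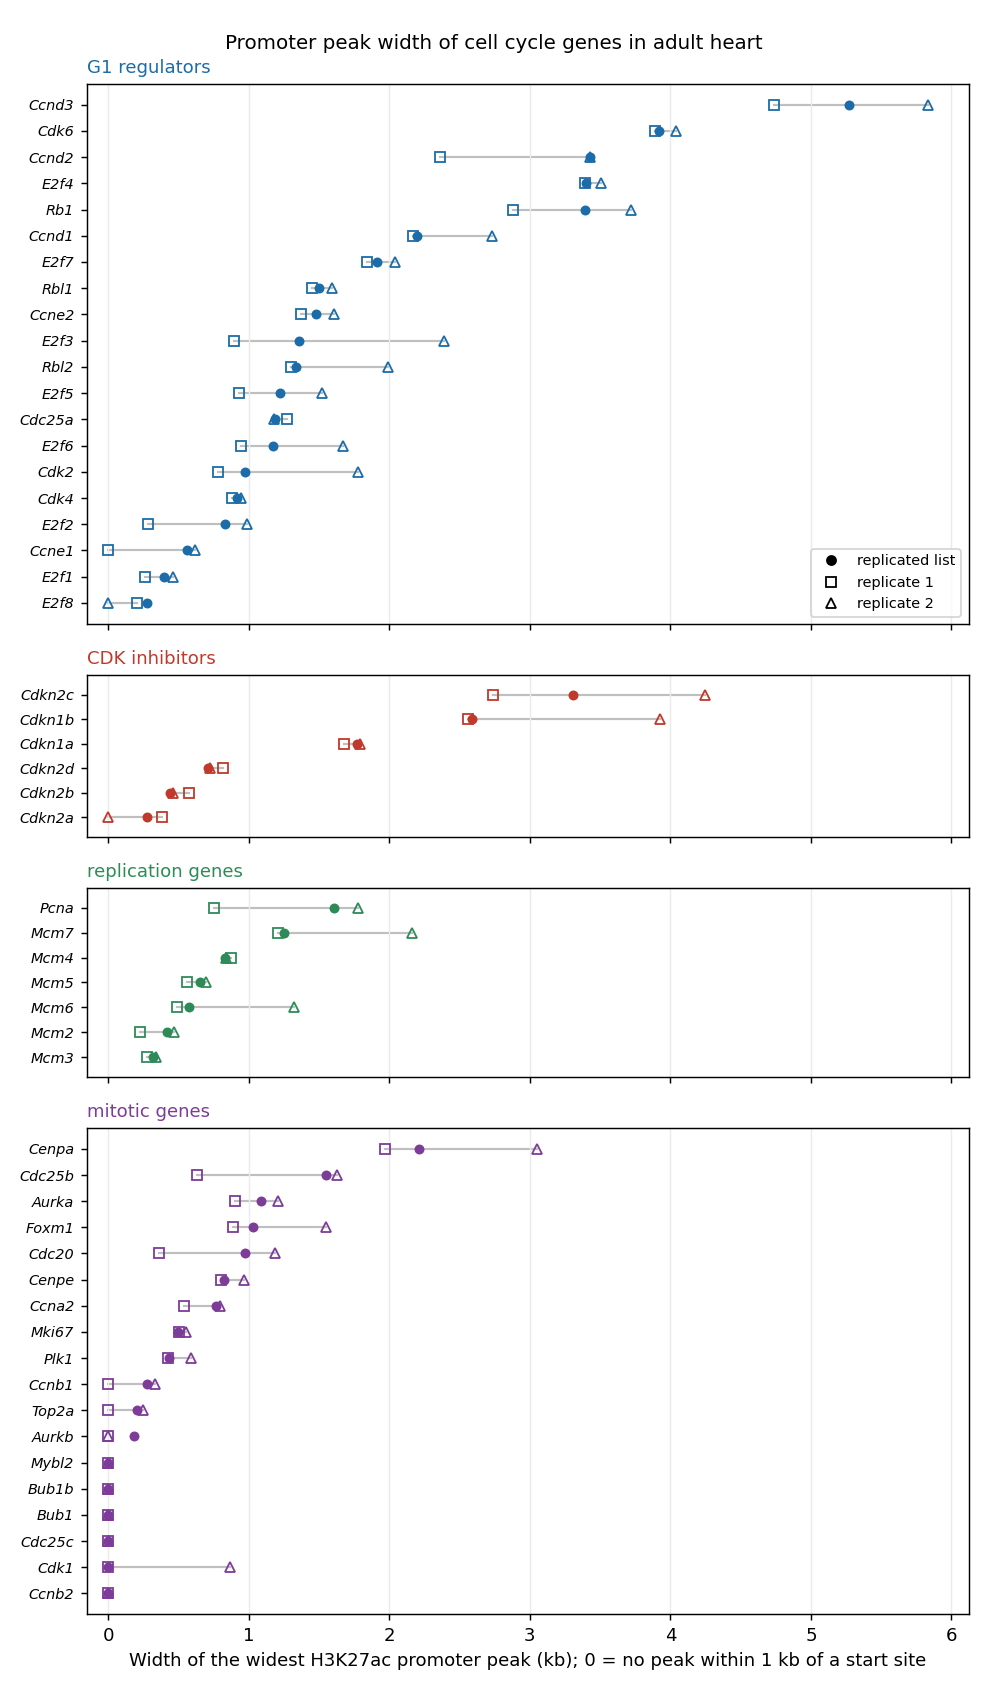
Width in kb of the widest H3K27ac promoter peak of each member in the replicated list (filled circle) and in the lists of replicate 1 (square) and replicate 2 (triangle), with a grey line between the replicates and 0 where no peak lay within 1 kb of a start site. Ccnd3, Cdk6 and Ccnd2 reach 5.27, 3.92 and 3.43 kb, and 6 mitotic genes lie at 0.

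Of the D cyclins and their kinases, Ccnd3, Cdk6 and Ccnd2 had the widest promoter peaks among G1 regulators. Ccnd1 and Cdk4 had narrower ones than E2f4 (3.4 kb) and Rb1 (3.39 kb). Ccnd3 (cyclin D3) had a peak of 5.27 kb in the replicated list, 4.74 kb in replicate 1 and 5.83 kb in replicate 2. That peak, at chr17:47592850-47598115, lies 87.8 kb into the gene (chr17:47505051-47599691, plus strand) at inner start sites, and a second of 2.99 kb covers the 5′ start. Cdk6, a catalytic partner of D cyclins, had 3.92 kb, with 3.89 and 4.04 kb in the replicates. Ccnd2 (cyclin D2) had 3.43 kb, with 2.36 and 3.43 kb, and Ccnd1 (cyclin D1) had 2.2 kb, with 2.17 and 2.73 kb. Cdk4, the other kinase of this step, had a short but strong peak of 0.917 kb and fold 17.2. The median of these 5 genes was 3.43 kb.

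The E cyclin step had a lower median width, 1.08 kb beside 3.43 kb at the D cyclin step, but both widths and folds overlapped. Cdk4 of the D cyclin step, with 0.917 kb, was narrower than Ccne2, Cdc25a and Cdk2. Cdk2 and Cdc25a, with folds of 11.6 and 11.1, stood above Ccnd1 (8.44) and Cdk6 (9.38). They stood below Ccnd2 (18.4), Ccnd3 (15.1) and Cdk4 (17.2). Ccne2 (cyclin E2) had a peak of 1.48 kb, with 1.37 and 1.61 kb in the replicates. Ccne1 (cyclin E1) had 0.558 kb with fold 3.85, a peak of 0.618 kb in replicate 2 and none in replicate 1. Cdk2, the kinase of E cyclins, had 0.977 kb beside a start of the pigment gene Pmel, and Cdc25a, the phosphatase that frees Cdk2, had 1.19 kb. Of these 4 genes only Ccne1 lacked the peak in a replicate.

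The E2F factors varied within each kind. The repressing E2f4, E2f5 and E2f6 had 3.4, 1.22 and 1.17 kb, and the activating E2f1, E2f2 and E2f3 had 0.397, 0.834 and 1.36 kb. The ranges of the 2 kinds overlap, and E2f3 reached 2.39 kb in replicate 2. The peak of E2f4 also lies near a start of Exoc3l, so its width is not that of E2f4 alone. The atypical repressors differed: E2f7 had 1.91 kb in the replicated list and 1.84 and 2.04 kb in the replicates, while E2f8 had 0.279 kb, 0.206 kb in replicate 1 and none in replicate 2. The widest peaks of E2f2, E2f3 and E2f7 in the replicated list lie within 1 kb of inner start sites. Within 1 kb of the 5′ end the widest peaks of these 3 genes had 287, 813 and 469 bp. The pocket proteins, which bind E2Fs, all had peaks over 1 kb in both replicates: Rb1 had 3.39 kb, Rbl1 1.5 kb and Rbl2 1.34 kb. The widest peak of Rb1 sits at an inner start that is also near a start of Lpar6, and a second peak of 3179 bp covers its 5′ start.

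Among the inhibitors the strongest promoter peak of all members was found. Cdkn1b, of the CIP/KIP family that binds cyclin-kinase pairs, had fold 41.5, a higher fold than 99.9% of all genes, over 2.59 kb (chr6:134919088-134921677), with 2.56 kb in replicate 1 and 3.93 kb in replicate 2. Cdkn1a, the p53-induced member of that family, had fold 21.8 over 1.77 kb, with 1.68 and 1.79 kb in the replicates. Its peak (chr17:29093759-29095524) lies at inner start sites, and the peak nearest to its 5′ end in the replicated list was 2.24 kb away. Both CIP/KIP inhibitors had a promoter peak in each replicate, and that of Cdkn1b passed 2 kb while that of Cdkn1a did not.

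The INK4 inhibitors, which bind Cdk4 and Cdk6, were unequal. Cdkn2c had 3.31 kb with fold 23.45 (2.74 and 4.25 kb in the replicates), and Cdkn2d had 0.71 kb with fold 16.55 (0.816 and 0.725 kb). Cdkn2b had 2 promoter peaks, the widest of 0.443 kb and the other with the higher fold, 6.635. Its widest promoter peak had 0.578 and 0.464 kb in the replicates. Cdkn2a, the senescence locus beside it, had 0.277 kb with fold 3.91, 0.385 kb in replicate 1 and none in replicate 2. That peak lies before the 5′ end of the gene, with its summit at -363 bp. Which of the 2 annotated starts of Cdkn2a it serves, and so which product, was not tested. The windows of Cdkn2a and Cdkn2b overlap, and each window holds 1.16 kb of acetylated length.

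Replication genes all kept a peak in both replicates, but a narrow one. Pcna, the sliding clamp of DNA polymerase, had 1.61 kb, with 0.75 and 1.78 kb in the replicates. The subunits of the MCM helicase ranged from 0.318 kb at Mcm3 to 1.25 kb at Mcm7, with 0.419 kb at Mcm2, 0.577 kb at Mcm6, 0.651 kb at Mcm5 and 0.832 kb at Mcm4. Folds ran from 4.43 at Mcm2 to 20.5 at Mcm7. Mcm7 and Mcm4 have a start of another coding gene within 1 kb, Ap4m1 and Prkdc, and the peak there lies near starts of both. Which gene the peak serves was not tested.

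The 6 mitotic genes without a promoter peak have different roles. They are Cdk1, the kinase that drives mitosis, Ccnb2 (cyclin B2), Cdc25c, a phosphatase that activates Cdk1, Bub1 and Bub1b, kinases of the spindle checkpoint, and Mybl2, the MYB factor that joins MuvB to activate late genes. From the 5′ end, the nearest peak lay 63.7 kb away at Cdk1, 53.9 kb at Ccnb2, 36.7 kb at Mybl2, 35.1 kb at Bub1b, 23.1 kb at Bub1 and 6.96 kb at Cdc25c. Cdk1 alone of these had a peak in a single replicate, 0.865 kb with fold 2.39 in replicate 2. The other 5 had none in either replicate.

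These promoters are rich in CpG, a feature that went with H3K27ac in the genome at large. Of the 4874 genes whose window has an observed over expected CpG ratio of at least 0.8, 90.2% had a promoter peak, against 18.1% of the 4964 genes below 0.3. Of the 27 members at 0.8 or above, 22 had one, and the 5 without are Ccnb2, Cdk1, Bub1, Bub1b and Mybl2. Their ratios were 0.95, 0.965, 0.983, 0.811 and 0.84. Cdc25c has no window among those used.

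A further 3 mitotic genes had weak peaks that not every list held. Ccnb1 (cyclin B1) had 0.278 kb and Top2a, the topoisomerase that untangles chromosomes, 0.207 kb, each present in replicate 2 (0.33 and 0.246 kb) and absent in replicate 1. Aurkb, the kinase of the chromosomal passenger complex, had 0.185 kb with fold 2.52 and −log10 q of 1.54, and neither single replicate nor the pooled list held it. Set beside the median fold of 13.2 over all genes with a promoter peak, the fold of 3.32 at Ccnb1 and of 3.41 at Top2a was low.

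The remaining 9 mitotic genes had a peak in each replicate. Cenpa, the centromeric histone H3 variant, had the widest, 2.21 kb with fold 27.03, and 1.97 and 3.05 kb in the replicates. Aurka, the kinase of spindle poles, had the highest fold, 30.5, over 1.09 kb, at a start it shares within 1 kb with Cstf1, a polyadenylation factor. Cdc25b had 1.55 kb beside Spef1, with 0.635 kb in replicate 1 and 1.63 kb in replicate 2. Foxm1, the forkhead activator of late genes, had 1.03 kb beside Rhno1, with 0.887 and 1.55 kb in the replicates. No start of another coding gene lies within 1 kb of Cenpa, Cdc20 (activator of the anaphase promoting complex, 0.972 kb), Cenpe (a kinetochore motor, 0.825 kb), Ccna2 (cyclin A2, 0.767 kb), Mki67 (the coat of mitotic chromosomes, 0.495 kb) and Plk1 (polo-like kinase, 0.43 kb). The peak of Cdc20 was much wider in one replicate, with 0.361 kb in replicate 1 and 1.19 kb in replicate 2. Leaving out members with a start of another coding gene within 1 kb, 9 of 14 mitotic genes had a promoter peak, beside 9654 of the 18556 genes left under the same limit.

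The peak summits at most mitotic genes lay on the far side of the start. Where a gene has a peak within 1 kb of its 5′ start, the summit of the strongest such peak lay before the start, outside the transcribed part, at 10 of 12 mitotic genes, against 28.5% of 11671 genes. It lay before the start at 8 of 19 G1 regulators, 1 of 5 inhibitors and 4 of 7 replication genes. Over all genes the median summit stood 166 bp after the start, and over mitotic genes at -215 bp. This measure was chosen after the positions were seen.

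**Figure D3:**
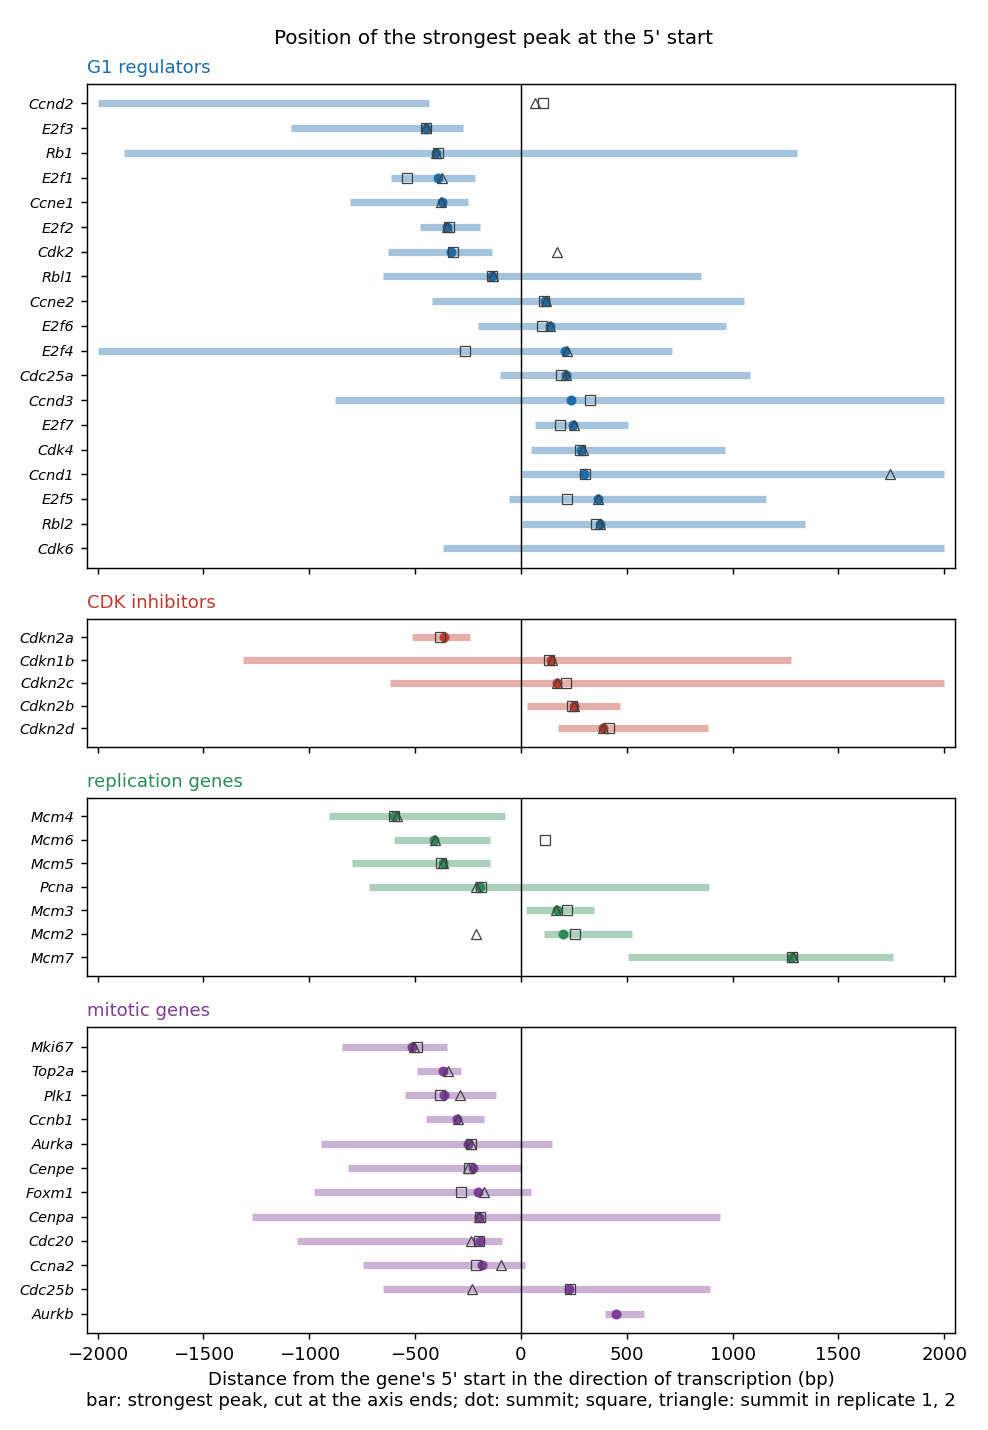
Strongest peak within 1 kb of the 5′ start of each member that has one (bar), with its summit in the replicated list (dot) and in replicate 1 (square) and replicate 2 (triangle). The horizontal axis is distance from the start in bp along the direction of transcription, and the summits of Ccnd2 (-2463 bp) and Cdk6 (2858 bp) fall outside it. In all, 10 of 12 mitotic summits stand to the left of 0.

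In several of these the whole peak ended short of the start. At Mki67 the peak ran from -844 to -350 bp with its summit at -516 bp, and the summit stood at -492 bp in replicate 1 and -505 bp in replicate 2. At Top2a it ran from -491 to -285 bp, at Ccnb1 from -450 to -173 bp, at Plk1 from -548 to -119 bp and at Cdc20 from -1060 to -89 bp. The promoter stretches printed for Mki67 and Top2a, with their CHR elements and CCAAT boxes, thus lie between the peak and the start. The strongest peak ended before the start at 5 of 12 mitotic genes, against 10.1% of all genes with such a peak. It did so at 6 of 19 G1 regulators, 1 of 5 inhibitors and 3 of 7 replication genes, so this was not particular to mitotic members. The mitotic count was 6 of 9 in replicate 1 and 4 of 12 in replicate 2, where the peak of Cdc20 ran from -1084 to 103 bp and covered the start. The summits of Ccna2 (-183 bp), Foxm1 (-204 bp), Cenpa (-198 bp), Cenpe (-226 bp) and Aurka (-252 bp) were also before the start, with peaks that ran past it. Cdc25b (229 bp) and Aurkb (448 bp) had their summit after it, and in replicate 2 that of Cdc25b stood at -233 bp.

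The side of the summit held in each list and away from other genes. It was before the start at 8 of 9 mitotic genes in replicate 1 and at 11 of 12 in replicate 2, beside 28.6% and 28.8% of all genes with such a peak. With members that have a start of any other gene within 1 kb left out, it was so at 7 of 8, beside 23.9% of 7186 genes. Of all genes with a peak at the 5′ start, 28.8% of those with a fold below 5 had the summit before the start. For those with a peak under 0.5 kb it was 32.8%. Whether the strength or width of a peak plays a part was not tested.

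Mitotic genes that are not members showed the same side. Of the 32 further mitotic genes listed (chromosomal passengers, kinesins, kinetochore and condensin subunits), 29 had a promoter peak and 28 had one at the 5′ start, and in 24 of these 28 the summit lay before it. The share was 22 of 25 in replicate 1 and 25 of 28 in replicate 2. In 18 of the 28 the whole peak ended before the start. Examples, picked after their values were seen, are Kif11, the spindle motor (summit at -275 bp, fold 21.9), Ttk, a checkpoint kinase (-232 bp, fold 14.3), Nuf2 of the kinetochore (-273 bp, fold 20.0) and Birc5, a passenger protein (-341 bp, fold 12.2). The 4 exceptions are Kif20a, Tpx2, Bub3 and Smc4. In 29 further replication genes with a peak at the 5′ start the summit lay before it in 10, and in the anaphase promoting complex in 3 of 13.

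**Figure D4:**
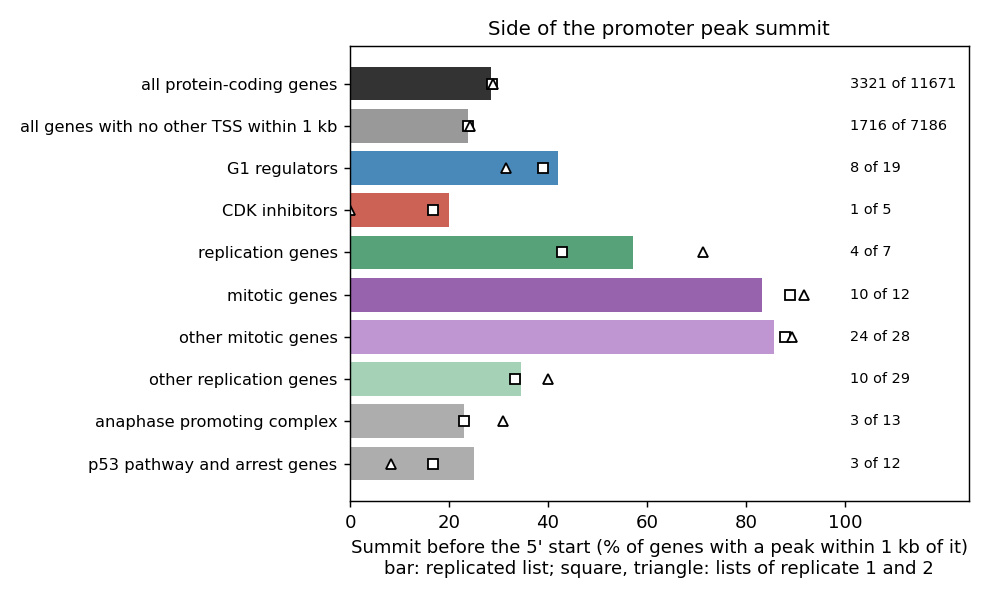
Percent of genes with a peak within 1 kb of the 5′ start whose strongest peak has its summit before the start, for all genes, the 4 classes of members and 4 further lists (bars, replicated list, counts at the right) and in replicate 1 (square) and replicate 2 (triangle). Mitotic members and the other mitotic genes stand at 83.3% and 85.7%, and all genes at 28.5%.

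The other lists place the members in their pathway. The 7 MuvB and E2F partner genes, subunits of DREAM and dimer partners of E2F, all had a promoter peak, with a median width of 1.04 kb. All 13 subunits and activators of the anaphase promoting complex had one (1.41 kb), as did the 6 checkpoint kinases (1.08 kb, widest at Wee1, Chek2, Atm and Pkmyt1). The 13 p53 pathway and arrest genes had the widest, 2.38 kb, led by Tob2, Gadd45g, Ccng2 and Btg2. Of 33 further replication genes 30 had one, all but Cdc6, Gins3 and Mcm10, and of 32 further mitotic genes all but Nek2, Racgap1 and Spc25. Meiosis genes, which act in germ cells, had 1 of 14 (Ccnb1ip1). The further mitotic genes had a median width of 0.759 kb and fold of 9.91, above the 0.354 kb and 3.74 of the mitotic members, so the low values are not shared by every list of mitotic genes.

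Peaks inside introns were found at G1 regulators and hardly at the other classes, and in every class more peaks lay at promoters of other genes than in introns. The 20 G1 regulators had 202 peaks in their windows, of which 35 were at their own promoters, 40 in their introns, 6 in their exons and 59 at promoters of other genes. The 18 mitotic genes had 122, of which 12 were at their own promoters, 0 in introns, 0 in exons and 54 at promoters of other genes. Replication genes had 51 peaks and also 0 inside introns, and inhibitors 33 distinct peaks with 1 in an intron. G1 regulators include the long genes Rb1 and Cdk6, and the part of gene length in this was not tested.

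The acetylated length of a gene is the number of bases under peaks within it and within 50 kb on either side. It had a median of 6.79 kb over all members, beside 4.39 kb over all genes and 7.95 kb over genes with a promoter peak. It was 9.36 kb in G1 regulators, 6.15 kb in inhibitors, 7.75 kb in replication genes and 3.79 kb in mitotic genes. These lengths were not divided by the size of the window, which grows with gene length. With 100 kb on each side the order changed, with mitotic genes (11.2 kb) above inhibitors (9.37 kb). Replicate 1 alone gave 4.4 kb over all members beside 3.6 kb over all genes, and replicate 2 gave 8.31 kb beside 5.37 kb, so the difference was smaller in replicate 1. The 4 classes had medians of 8.08, 4.94, 5.89 and 2.96 kb in replicate 1 and of 10.9, 7.79, 9.42 and 4.82 kb in replicate 2. Much of the acetylated length lies in peaks nearer to the start of another coding gene. Peaks nearest to the member are called its own below, by distance alone, and which gene a peak serves was not tested. Counting only peaks whose nearest coding start is that of the member, the medians were 3.11, 2.59, 0.719 and 0.694 kb.

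**Figure D5:**
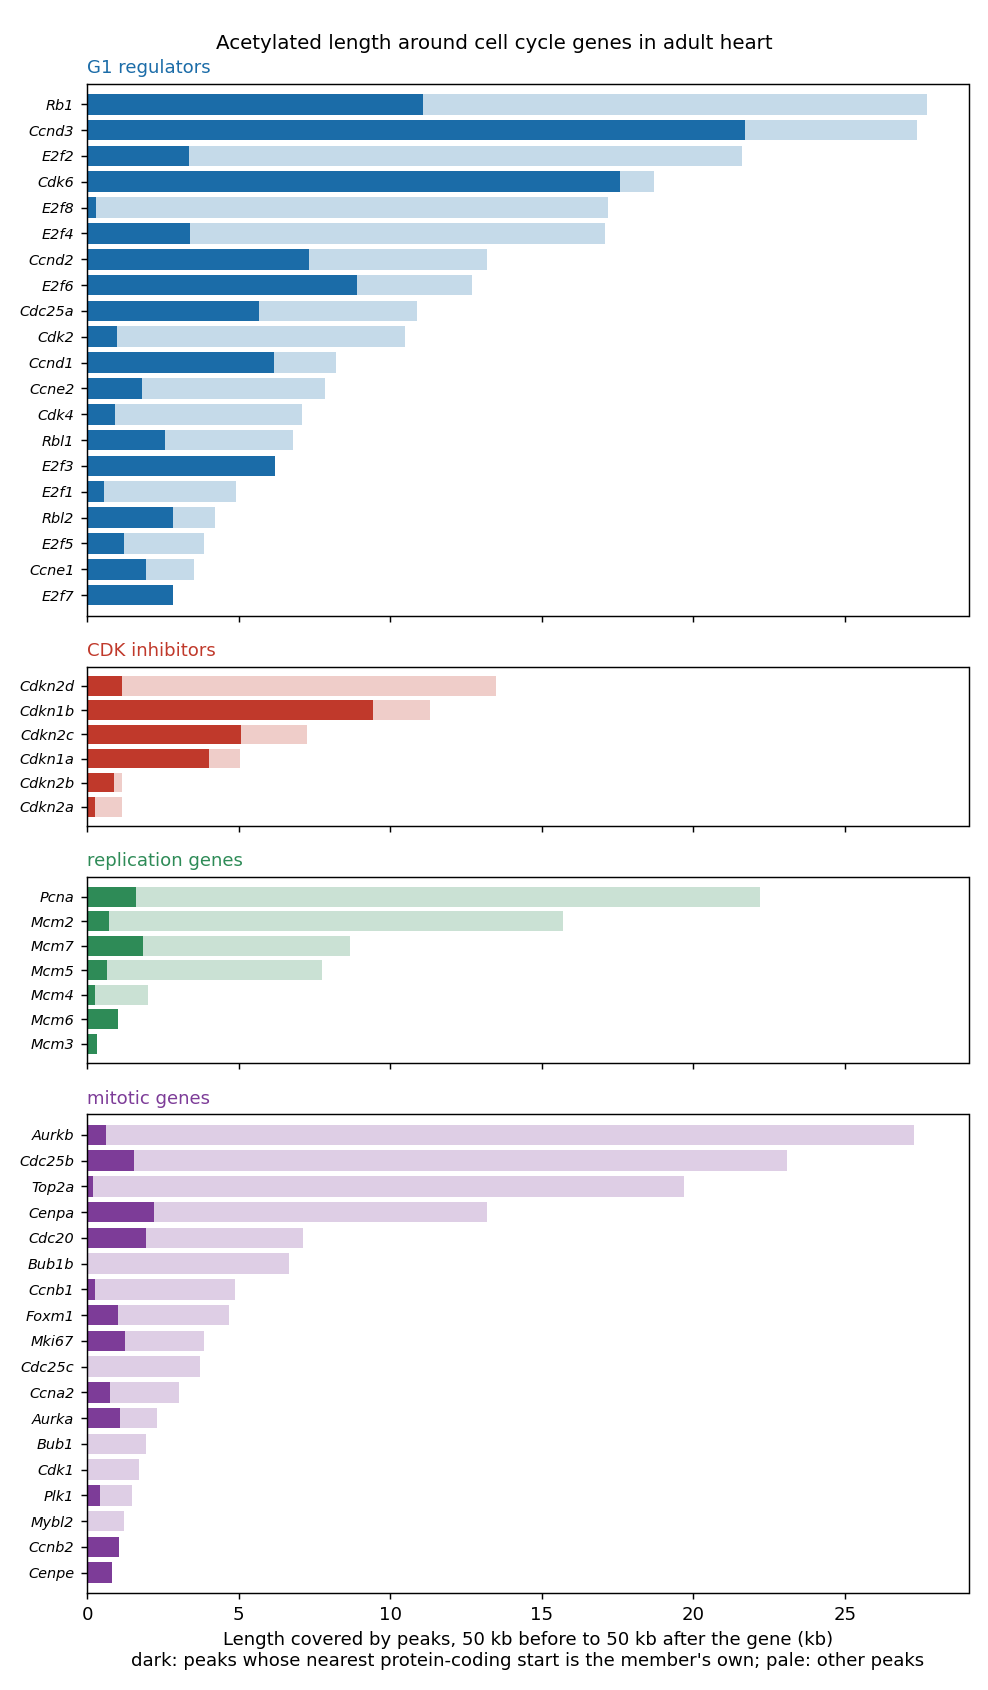
Acetylated length in kb of each member, its 50 kb on either side included, replicated list, split into peaks whose nearest protein-coding start is the member's own (dark) and all others (pale). Ccnd3 and Cdk6 are mostly dark, with 21.7 of 27.4 kb and 17.6 of 18.7 kb, and Aurkb is nearly all pale, with 0.621 of 27.3 kb.

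Of the 10 longest acetylated lengths, those of Ccnd3 and Cdk6 were largely the member's own, with 21.7 of 27.4 kb and 17.6 of 18.7 kb. That of Rb1 was the longest, and 11.1 of its 27.7 kb were its own. Their strongest peaks over 2.5 kb from any start lie in their introns, at chr17:47510432-47512487 in Ccnd3 (fold 25.7, 5.38 kb from the 5′ end), at chr5:3432727-3433791 in Cdk6 (fold 9.01, 91.2 kb) and at chr14:73225963-73229103 in Rb1 (fold 12.4, 96.7 kb). The start nearest to this last peak is that of Lpar6, not of Rb1. All 3 overlapped a peak of each replicate.

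At E2f8, E2f2 and Aurkb most of the length lay in peaks nearer to the starts of other genes. The window of E2f8 holds 17.2 kb, of which 0.279 kb is its own, and its longest peak, 7.89 kb, is at the promoter of Csrp3, a muscle LIM protein. The window of E2f2 holds 21.6 kb with 3.37 kb of its own and a peak of 9.01 kb at Id3, an inhibitor of helix-loop-helix factors. The window of Aurkb holds 27.3 kb, with a peak of 6.25 kb at the clock gene Per1 and one of 2.63 kb at Vamp2. The strongest distal peak near each of these 3 had another gene's start as its nearest: Csrp3 (fold 8.815), Id3 (fold 16.4) and Ctc1 (fold 13.5).

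At Top2a, Pcna, Cdc25b and E2f4 most of the length again lay in peaks nearer to other genes. Top2a had 0.207 of 19.7 kb of its own, next to Rara (peaks of 3.41 and 3.21 kb) and Igfbp4. Pcna had 1.61 of 22.2 kb, next to Cds2 with a peak of 6.83 kb. Cdc25b had 1.55 of 23.1 kb, and E2f4 3.4 of 17.1 kb among 10 peaks at promoters of other genes. Their strongest distal peaks had folds of 8.05, 10.5, 10.7 and 5.21, and none had the member as its nearest start.

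The shortest acetylated lengths were those of Mcm3 with 0.318 kb, Cenpe with 0.825 kb, Mcm6 with 1.03 kb, Ccnb2 with 1.07 kb, and Cdkn2a and Cdkn2b with 1.16 kb each. At Mcm3 and Cenpe the promoter peak was the only one in the window. The replicates gave 0.273 and 0.715 kb at Mcm3, and 0.806 and 0.964 kb at Cenpe, so these lengths were short in both.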

How the data were processed

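Peaks of H3K27ac came from 4 libraries of whole heart. Each deposited list gives positions on mm10, a fold, −log10 p and −log10 q values and a summit for each peak. Per the deposited file lists, the replicated list and the pooled pseudoreplicated list derive from the alignments of both biological replicates, and 1 list from each replicate, with technical replicates joined. The fold is the authors' ratio per peak and the −log10 values are the authors' own, both used within a list only. Not given in the sources used here are the aligner and the peak caller, and depth is unknown. Hybrid reads were placed on mm10, and whether CAST/EiJ variants moved any peak was not tested.

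Genes and start sites came from GENCODE M21, and the first gene by position was used for a repeated symbol. Overlaps and lengths were computed in Python 3.11.15 and checked against direct counting on simulated peaks, and figures were drawn with matplotlib 3.10.9. No test was run. The members and lists were chosen with earlier results of these data known.

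Named with values by rule were, in each class, members without a promoter peak, those missing it in a replicate, and the 4 widest and 4 narrowest, over all members the 10 longest and 5 shortest acetylated lengths with the strongest distal peak of those 10, and up to 4 widest and 4 without a peak in other lists. All other members are given briefly. Peaks shared between lists overlap by at least 1 bp, and peaks over 2.5 kb from every start were called distal. Alternatives were windows of 0.5 and 2.5 kb at the start and of 25 and 100 kb around the gene, other lists, stricter q or fold, and leaving out shared starts.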

Additional observations from a re-analysis of the deposited data

How the results depend on the processing

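Leaving out a replicate means using the list of the other. Of 50 recomputed counts of promoter peaks 49 stayed within 1.5 times the value reported, and the exception has fewer members: 4 of 4 replication genes with no other gene's TSS within 1 kb. The median promoter peak width of G1 regulators was 1.29 to 1.73 kb with a replicate left out, and that of inhibitors 1.25 to 1.26 kb. For inhibitors it was 1.36 kb with a promoter window of 2.5 kb, 0.577 kb at the 5′ end only and 0.71 kb without shared starts. For mitotic genes it was 0 kb when only peaks with fold above the list median counted. Median acetylated length over all members was 4.4 to 8.31 kb with a replicate left out, and 4.4 kb is the value without replicate 2. With 100 kb on each side it was 13.9 kb over all members, 16.3 kb in G1 regulators, 9.37 kb in inhibitors, 12.5 kb in replication genes and 11.2 kb in mitotic genes. With 25 kb it was 6.55 kb in G1 regulators and 2.11 kb in mitotic genes. Counting peaks nearest to the member alone, the 5 medians were 1.14, 3.11, 2.59, 0.719 and 0.694 kb, and without peaks at promoters of other genes 2.74, 5.25, 2.1, 1.03 and 1.2 kb. Mitotic genes with the summit before the 5′ start, a measure whose alternatives were chosen after seeing the data, numbered 8 to 11 with a replicate left out, 10 of 11 in the pooled list and 7 of 8 without shared starts. No paired analysis was possible because there is 1 group. Depth is unknown, so an absent peak is one not called in these lists, not an absent mark.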
